A study of Mus musculus with 12 samples.

Results

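Med12 and Med14 encode Mediator subunits, Taf1 and Taf9b encode TFIID subunits, and Ogt encodes the O-GlcNAc transferase. These 5 X-linked genes of the basal transcription machinery and nutrient signalling were examined for the share of OCT4 and YY1 binding that lay on the inactive X chromosome (Xi). A peak belonged to a gene when it lay in the RefSeq gene body or within 20 kb of it, and this gave 15 of the 1217 peaks with allelic ratios: 12 of the 1006 OCT4 peaks and 3 of the 211 YY1 peaks. The genes were chosen with the OCT4 ratios of both days in view, Med14 and Ogt for keeping OCT4 on Xi and Taf9b for losing it. The OCT4 values of these genes are therefore given as a description with no test. YY1 is given with a test, but the genes were chosen with earlier results of these data known. It is not recorded whether YY1 ratios were among those results, so the YY1 p-values are not clear of the choice. The methods state that OCT4 and YY1 were precipitated out of shared chromatin. The YY1 values are therefore another readout of that chromatin and no independent support for what OCT4 showed.

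All libraries came from iXist-ChrX-Cast mESCs (mouse embryonic stem cells), an XX line from an interspecific cross in which doxycycline drives Xist from a TetOn promoter on the castaneus X, so that this X becomes Xi in every cell that responds and the other X remains active (Xa). Day 0 libraries came from cells without doxycycline. Day 6 libraries came from cells given 1 µg/ml doxycycline for 6 days in the same stem cell medium with LIF, and both groups carried the same inducible allele. OCT4, YY1 and input were sequenced in 2 replicates per day, 12 libraries in all, and allelic ratios were deposited for the 8 that are not input. The allelic ratio is Xi/(Xi + Xa), the fraction of allele-assigned fragments in a peak that came from Xi, so 0.5 is equal occupancy of both chromosomes. It does not give total occupancy, and the fragments behind each ratio are unknown. Several OCT4 ratios are fractions of small whole numbers, so few fragments may lie behind them. Examples in day 6 replicate 2 are 0.0833 at the Taf9b promoter and 0.583 at the Med14 promoter.

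As limits of the model, the ratios describe 1 engineered line, the labels of the YY1 day 0 libraries give no antibody (the factor comes from the titles), and the cells were grown on fibroblast feeders that were removed by pre-plating. Nothing in the labels tells whether replicates were grown as separate cultures, and p-values therefore measure only the spread between these samples. As a check of cell type, all 7 pluripotency marker genes (Pou5f1, Nanog, Sox2, Klf4, Esrrb, Zfp42 and Tdgf1) had an OCT4 region at a promoter. A promoter region was also found at 51.6% of all 21521 protein-coding genes, and the list is pooled over libraries of both days. The marker check is one of positions, since expression was not measured.

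Mediator is the large complex that carries signals from DNA-bound activators to RNA polymerase II. MED14 is the scaffold that holds its modules together, and MED12 belongs to the detachable kinase module. TFIID recognises core promoters with TBP and its associated factors, of which TAF1 is the largest and TAF9B is a close relative of TAF9. OGT attaches O-GlcNAc to serines and threonines of nuclear and cytoplasmic proteins, and in mice it is essential for embryonic stem cell viability. OCT4 (Pou5f1) is a pluripotency factor that reads an octamer and binds mostly at enhancers, whereas YY1 is a zinc finger factor of promoters and enhancers.

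Since OCT4 and YY1 read different letters, the peaks were searched on both strands for the octamer (ATGCAAAT or ATGCTAAT) and for a YY1 core (AANATGGC). The octamer lay in 3 of the 12 OCT4 peaks, against 20.2% of all 1006, and the YY1 core lay in 1 of the 3 YY1 peaks, against 76.8% of all 211. The matches are shown with flanking bases from the mm10 genome, 5′ to 3′ on the named strand, with the motif in capitals, because they mark where the sequence of each factor sits relative to the peaks described afterwards. The first 3 are the octamers in the OCT4 peaks.
Med14 intron, chrX:12759216-12759245, minus strand: gtttaattcatATGCTAATagtctcattct
Ogt upstream, chrX:101635967-101635996, plus strand: atgtggacattATGCAAATagcacatgaat
Downstream of Med12 in Nlgn3, chrX:101304348-101304377, plus strand: cagaggctctcATGCAAATgaaggacctct
The next 3 are the YY1 cores at Taf9b, at the promoter YY1 peak, at the far edge of the OCT4 peak that overlaps it, and at the outer transcription start, where no peak with ratios lay.
Taf9b YY1 and OCT4 peaks, chrX:106219599-106219628, minus strand: tggagccggccAAGATGGCgcctatcaaga
Taf9b OCT4 peak, chrX:106220045-106220074, minus strand: tttgcagtatcAACATGGCctgtgtgccga
Taf9b outer start, chrX:106221124-106221153, minus strand: catcaaagttcAAGATGGCtgaccaggagt

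The 3 octamers lay in peaks that changed by different amounts, by -0.0483 in the Med14 intron, by -0.0871 upstream of Ogt and by -0.308 in Nlgn3. Over all OCT4 peaks, the median change was -0.153 with an octamer and -0.149 without one. In RefSeq promoter windows (GRCm38.p6, 300 bases a start), the YY1 core lay in both Taf9b windows and in none of the other 5 windows of these genes, while 6.08% of 32619 mouse promoter windows hold it. No octamer lay in these 7 windows, and 2.64% of all windows hold one.

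OCT4 was found at 4 of the 5 genes. Ogt had 8 regions of the pooled OCT4 peak list in its window, Med12 and Med14 had 5 each, Taf9b had 2 and Taf1 had none. Ratios were deposited for all 5 regions at Med14, 5 of 8 at Ogt, 1 of 5 at Med12 and 1 of 2 at Taf9b, while 47.0% of the 2139 OCT4 regions of the X had them. The OCT4 region 134 bp from the Med12 start (chrX:101273387-101273957) was among those without a ratio, so OCT4 on Xi could not be read at the Med12 promoter. None of the 71 regions of the X called in input lay in these windows. Taf1, at chrX:101527572-101601789, had no peak with ratios of either factor and is not described further.

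At Med14 (chrX:12675368-12762594, minus strand, 90.7 Mb from Xist), OCT4 stayed close to equal on both chromosomes. The promoter peak (chrX:12761388-12762468), which covers 5′ UTR, coding exon and intron of Med14 and the start of the non-coding gene Gm14634, had ratios of 0.450 and 0.526 at day 0 and of 0.364 and 0.583 at day 6. The day 6 libraries lay on either side of the day 0 libraries, so the groups overlapped, and the mean moved from 0.488 ± 0.0540 to 0.473 ± 0.155 (SD, n = 2), which is 97.0% of the day 0 ratio.

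The groups also overlapped in the 4 distal Med14 peaks. In the intron, 2609 bp from the nearest start (chrX:12758872-12759364), the ratios were 0.426 and 0.585 at day 0 and 0.533 and 0.381 at day 6. In an intron of Gm14634, 4230 bp upstream (chrX:12766824-12767160), they were 0.588 and 0.600 and then 0.600 and 0.500. In each of these peaks a day 6 library lay within or above the day 0 range. Further upstream, 5782 bp away (chrX:12768376-12768829), the day 0 ratios were 0.458 and 0.447 and the day 6 ratios 0.286 and 0.565. That gap of 0.280 between the day 6 replicates was larger than in 97.0% of OCT4 peaks, so the small mean change of -0.0271 there averaged a low and a high library. At the other end, 1613 bp past the gene and at the promoter of 1810030O07Rik (chrX:12673185-12673755), the ratios were 0.567 and 0.407 and then 0.375 and 0.480, again with overlap.

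Averaged over its 5 peaks, Med14 started at 0.498 and 0.513 and stood at 0.432 and 0.502 after induction. Day 6 replicate 2 lay between the day 0 libraries and day 6 replicate 1 lay below them. The change of -0.0387 left 92.3% of the day 0 ratio, but it rested on the day 6 libraries and was -0.00356 without day 6 replicate 1 and -0.0739 without day 6 replicate 2. Each of the 5 peaks changed by between -0.0595 and -0.0147. The peaks differ in what the rule did not use, with a GC content of 69.1% at the promoter and 37.3% in the intron, which rank above 98.2% and 3.68% of OCT4 peaks.

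**Figure D1:**
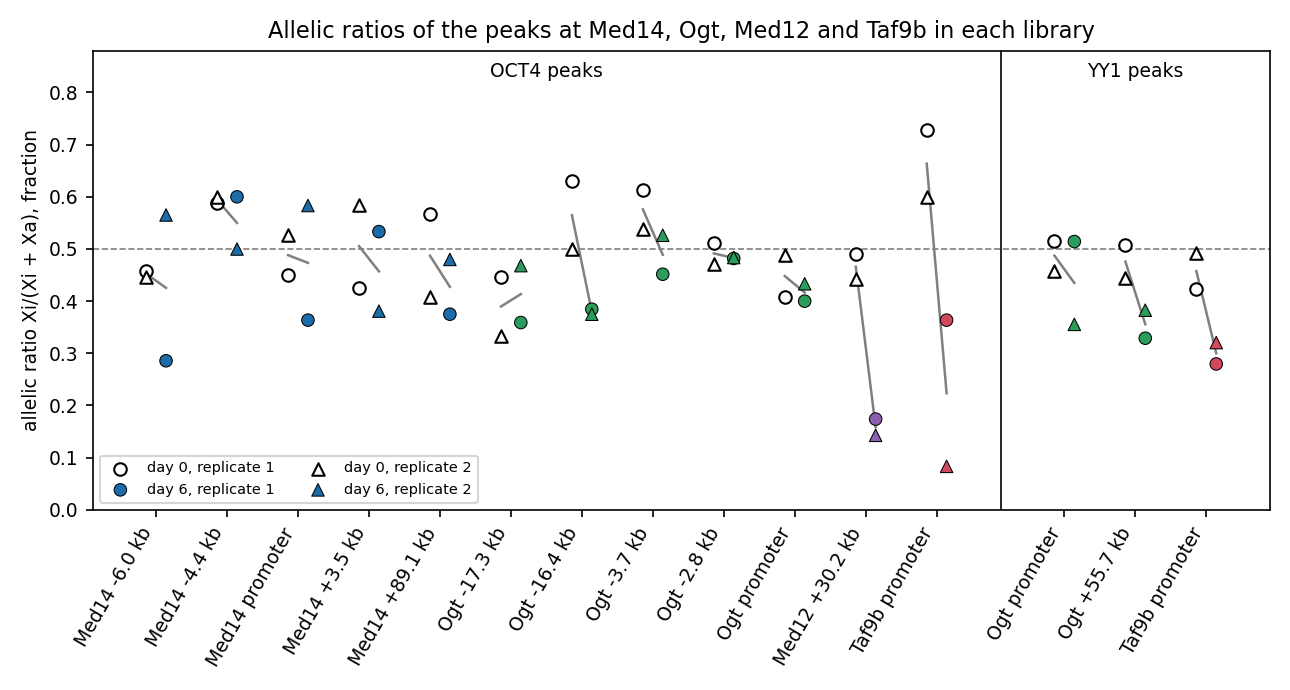
Allelic ratio (y axis, fraction from Xi) of the 12 OCT4 and 3 YY1 peaks (x axis, named by gene and by distance of the peak centre from the gene's 5′ end). Open symbols are day 0 and filled symbols day 6, coloured by gene (Med14 blue, Ogt green, Med12 purple, Taf9b red), circles are replicate 1, triangles replicate 2, grey lines join the 2 means and the dashed line marks 0.5. At Med14 open and filled symbols overlap in all 5 peaks, whereas both day 6 libraries lie under day 0 at the Med12 and Taf9b OCT4 peaks. They also lie under day 0 at the Ogt OCT4 peaks at -3.7 and -16.4 kb and at the Taf9b and distal Ogt YY1 peaks.

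Ogt (chrX:101640011-101684351, plus strand) lies 1.78 Mb from Xist, and its OCT4 peaks also kept most of their mean Xi share. So did the typical peak, with a median of 68.6% of the day 0 ratio kept over all OCT4 peaks and 77.0% over promoter peaks. At the promoter peak (chrX:101639107-101640219, in 5′ UTR and intron), the ratios were 0.407 and 0.489 at day 0 and 0.400 and 0.433 at day 6. Day 6 replicate 2 lay within the day 0 range, and 93.0% of the mean ratio was kept. The peak 2471 bp upstream (chrX:101636972-101637540) moved least, with 0.511 and 0.472 at day 0 and 0.482 and 0.484 at day 6, 98.2% of the day 0 mean.

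The means of other upstream Ogt peaks moved more. At 3452 bp (chrX:101635970-101636559, with the octamer shown above), the ratios went from 0.614 and 0.538 to 0.452 and 0.526, and both day 6 libraries lay under both day 0 libraries. A further pair of neighbouring peaks lay 16291 and 17096 bp upstream. The nearer one (chrX:101623443-101623720) went from 0.630 and 0.500 to 0.385 and 0.375, a change of -0.185 with both day 6 libraries below day 0. It kept 67.2% of its mean ratio, less than the median OCT4 peak. The farther one (chrX:101622517-101622915) went from 0.446 and 0.3333 to 0.359 and 0.468, with overlapping groups. Its mean was higher at day 6 by 0.0238, less than the gap of 0.113 between its day 0 replicates, and the difference between these neighbours was not tested.

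Averaged in the same way, the 5 Ogt peaks started at 0.522 and 0.466 and stood at 0.415 and 0.457 after induction. Both day 6 libraries lay below both day 0 libraries by this mean, and the change of -0.0577 left 88.3% of the day 0 ratio. Without day 0 replicate 1 the change was -0.0301, without day 6 replicate 1 it was -0.0368, and the most negative value with a library left out was -0.0853. All 5 peaks with ratios lay upstream of the gene or at its start. The 3 OCT4 regions on the other side of Ogt had no ratio.

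At Taf9b (chrX:106206874-106221158, minus strand), 2.72 Mb from Xist, the single OCT4 peak with ratios lost most of its Xi share. It lies at the start of the shorter transcript (chrX:106219535-106220085, in 5′ UTR, coding exon and intron), with its centre 1348 bp inside the gene's 5′ end. The ratios were 0.727 and 0.600 at day 0 and 0.364 and 0.0833 at day 6, so both day 6 libraries lay under both day 0 libraries. The mean went from 0.664 ± 0.0900 to 0.223 ± 0.198 (SD, n = 2), the largest fall of the 12 peaks, and only 0.398% of all OCT4 peaks changed by a more negative value. The peak also had the highest day 0 mean of the 12, above equal occupancy, and 33.7% of that mean was left. Its day 6 replicates differed by 0.280, more than in 97.2% of OCT4 peaks, so the size of the fall was measured loosely. Without day 6 replicate 1 the change was -0.580, and without day 6 replicate 2 it was -0.300.

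Near Med12 (chrX:101274091-101298934, plus strand, 2.16 Mb from Xist), the 1 OCT4 peak with ratios lay 5134 bp past the gene in an intron of Nlgn3 (chrX:101304068-101304493), the gene of a synaptic adhesion protein. Its ratios were 0.490 and 0.442 at day 0 and 0.174 and 0.143 at day 6. Replicates were close on both days and the groups were far apart, with 34.0% of the day 0 mean left. Distance alone assigns this peak to Med12.

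**Figure D2:**
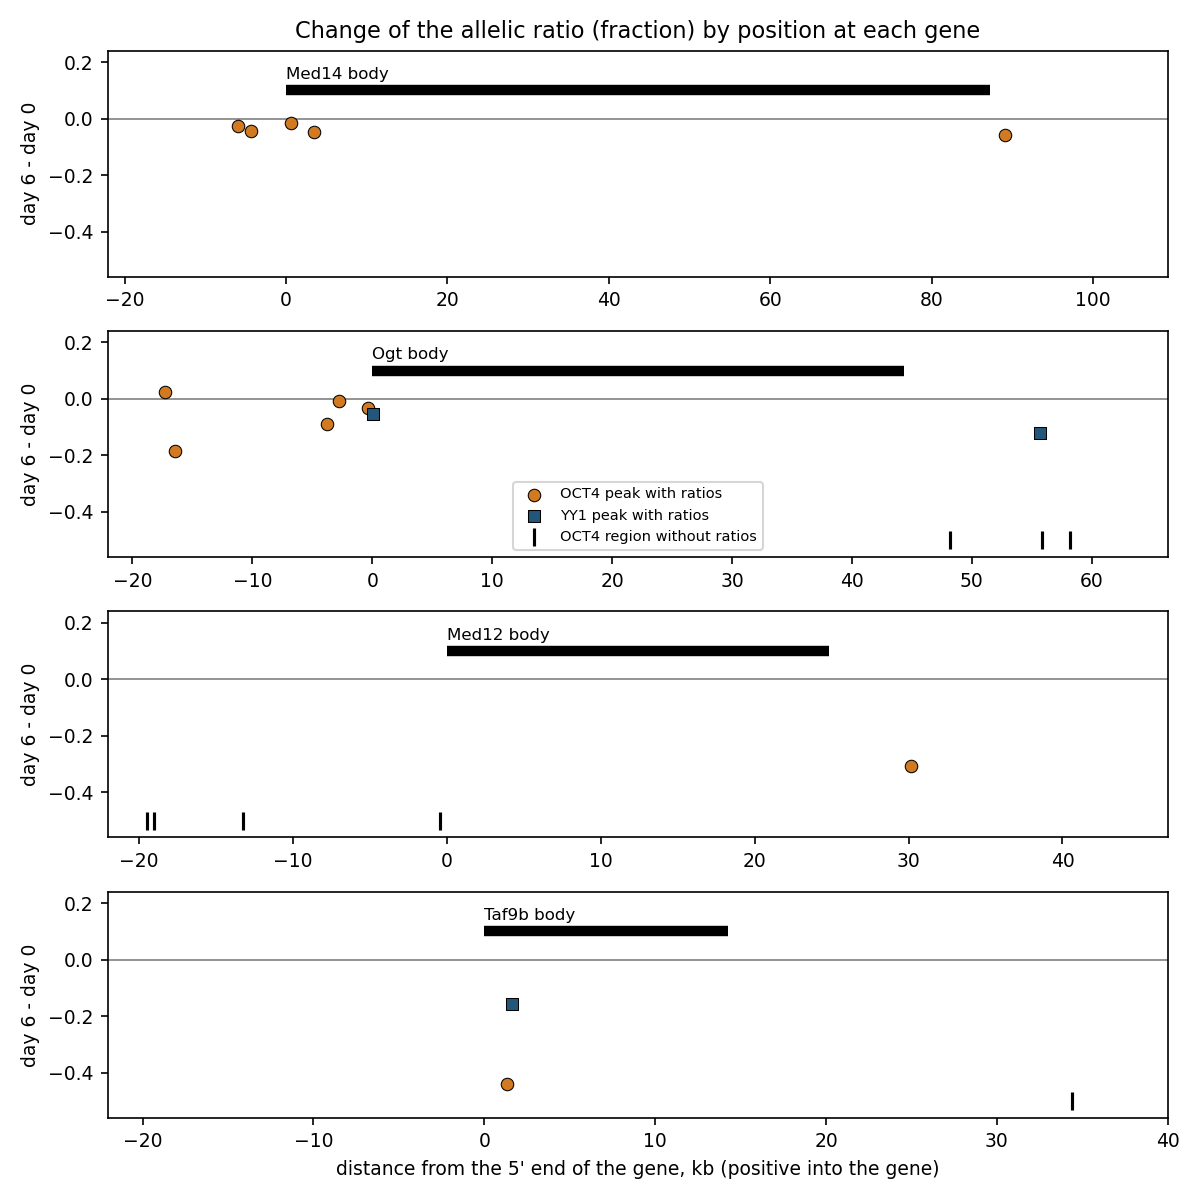
Change of the allelic ratio (y axis, day 6 mean minus day 0 mean, fraction) against distance of the peak centre from the gene's 5′ end (x axis, kb, positive into the gene) for OCT4 peaks (circles) and YY1 peaks (squares), with the gene body as a black bar and OCT4 regions without ratios as ticks. The Med14 circles and 4 of the 5 Ogt circles lie within 0.1 of no change, and the Taf9b circle lies at -0.440.

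Across the 12 OCT4 peaks, 3 were at promoters (within 500 bp of a RefSeq start of these genes) and 9 were distal. Their median change was -0.0462, against -0.149 over all 1006 OCT4 peaks, -0.111 over 180 promoter peaks and -0.160 over 826 distal peaks. Both day 6 ratios lay under both day 0 ratios in 4 of the 12, against 73.0% of all OCT4 peaks. The genes were chosen on these same ratios, so the count describes the choice. Replicates were further apart in these peaks than in most, with median differences of 0.0788 at day 0 and 0.103 at day 6 against 0.0585 and 0.0677 over all OCT4 peaks, and the part of this spread in the overlap of the groups was not tested.

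**Figure D3:**
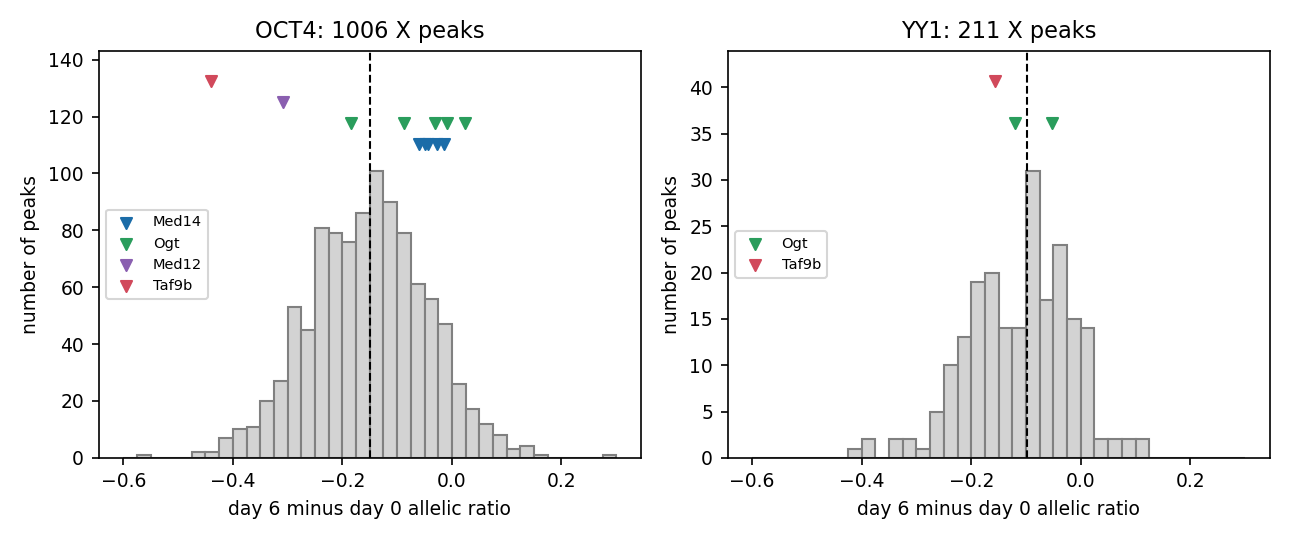
Number of X peaks (y axis) by day 6 minus day 0 ratio (x axis, fraction) for OCT4 (left, 1006 peaks) and YY1 (right, 211 peaks), with triangles marking the peaks of each gene at their change (their height has no meaning) and a dashed line at the median of all peaks. Med14 and 4 of 5 Ogt triangles lie to the right of the OCT4 median of -0.149, and the Med12 and Taf9b triangles lie in the left tail.

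YY1 ratios were deposited at Ogt and Taf9b only, and the change passed the threshold at the Taf9b promoter. The p-value there is not clear of the choice of the genes, which was made with earlier results of these data known. At the Taf9b promoter (chrX:106219226-106219870, around the start of the shorter transcript), the YY1 ratios were 0.423 and 0.493 at day 0 and 0.280 and 0.321 at day 6. Both day 6 libraries lay under both day 0 libraries. YY1 fell by 0.157 ± 0.0390 (SE), with an adjusted p of 0.0248 (limma on all 211 YY1 peaks, two-sided, Benjamini-Hochberg), and 65.6% of the day 0 ratio was left. A fall of this size was not unusual, since 32.2% of all YY1 peaks changed by a more negative value. Over the 81 YY1 promoter peaks of the X, the median change was -0.131 and the median share kept was 74.6%. The call was lost on leaving out any of the 4 libraries, with limma adjusted p-values from 0.0563 to 0.104, although the change stayed between -0.193 and -0.122.

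At the Ogt promoter, the YY1 peak (chrX:101639884-101640332) had ratios of 0.516 and 0.458 at day 0 and of 0.514 and 0.356 at day 6. Replicate 1 was at nearly the same level on both days and day 6 replicate 2 was the lowest library. The change of -0.0523 ± 0.0585 (SE) did not pass the test (limma adjusted p = 0.511), and with a library left out it ran from -0.132 (without day 6 replicate 1) to 0.0271 (without day 6 replicate 2). A second YY1 peak, 11095 bp past Ogt at the start of Gm52429 (chrX:101695446-101695881), went from 0.507 and 0.444 to 0.329 and 0.383, with both day 6 libraries below day 0. Its change of -0.120 ± 0.0393 (SE) missed the threshold (limma adjusted p = 0.0545), and one of the 3 OCT4 regions without a ratio overlapped it.

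Of the 3 YY1 peaks, 1 was called lower, against 42.2% of all YY1 peaks, and 2 had both day 6 ratios under both day 0 ratios, against 72.0%. Their median change of -0.120 stood beside -0.0987 over all 211 YY1 peaks. That YY1 passed the test at Taf9b and not at Ogt does not show that the promoters differed. The YY1 ratio at Taf9b minus that at Ogt was -0.0936 and 0.0343 before Xist, against -0.235 and -0.0349 after induction, so the days overlapped. This difference changed by -0.105, with an exact two-sided permutation p of 0.667, and 2 libraries against 2 cannot go below 0.33.

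At both promoters the OCT4 and YY1 peaks overlapped by 336 bp, so the 2 factors could be read side by side. At Taf9b, OCT4 kept 33.7% of its day 0 ratio and YY1 kept 65.6%. At Ogt, OCT4 kept 93.0% and YY1 89.3%. The medians over all promoter peaks of the X were 77.0% for OCT4 and 74.6% for YY1. The change of YY1 was less negative than that of OCT4 by 0.283 at Taf9b, where the OCT4 day 0 ratio was also the higher, and differed by -0.0210 at Ogt. The OCT4 values chose the genes, so these differences were not tested.

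The other Mediator and TFIID genes listed here lie on autosomes, where no ratios were given, and were described by the pooled OCT4 list alone. The X-linked TFIID paralogue Taf7l, counted with the X-linked genes instead, had 0 OCT4 regions within 20 kb. An OCT4 region lay within 20 kb of 30 of 31 other Mediator genes, the exception being Med10, and at a promoter of 25 of them (80.6%). Med13l, which encodes a kinase module subunit, had the most, with 14 regions. All 15 autosomal TFIID genes of the list had a region within 20 kb and 11 had one at a promoter (73.3%), with 9 regions at Taf8. Of the 5 genes, 4 had a promoter region. Among all 21521 protein-coding genes, 81.3% had a region within 20 kb and 51.6% had one at a promoter. A longer gene has a longer window, and the median length was 44.3 kb for the 5 genes, 15.9 kb for Mediator, 17.5 kb for TFIID and 17.4 kb for all genes.

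**Figure D4:**
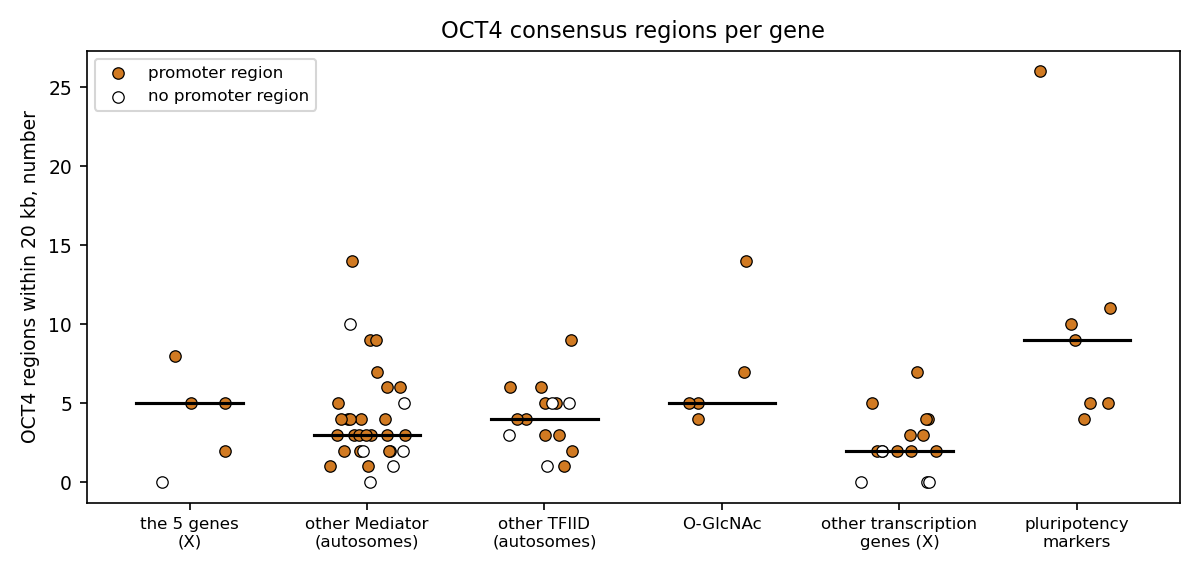
Number of pooled OCT4 regions within 20 kb of each gene (y axis) for the 5 X-linked genes and the lists compared with them (x axis), with 1 point a gene, filled where a region lay within 500 bp of a transcription start, and a bar at the median. Ogt has the most regions of the 5 with 8, Taf1 has 0, and the Mediator and TFIID medians are 3 and 4.

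Among 15 other X-linked genes of the transcription machinery, 21 OCT4 peaks had a median change of -0.135, with 8 called lower (limma adjusted p under 0.05) against 35.0% of all OCT4 peaks. Most of the called peaks lay at Tbl1x and the others at Hcfc1, Tceal5 and Rbbp7, and several genes had no OCT4 ratio. The 8 YY1 peaks of these genes had a median change of -0.0967, with 1 called lower against 42.2% of all YY1 peaks. That peak, at the Tceal3 promoter, went from 0.474 to 0.137 (limma adjusted p = 0.00833). These calls depended on single libraries: over all peaks, limma called 1 OCT4 peak lower without OCT4 day 0 replicate 1, 0 without OCT4 day 0 replicate 2, and 0 YY1 peaks without YY1 day 0 replicate 2. Hcfc1 encodes a chromatin cofactor that OGT both modifies and cleaves. Its OCT4 promoter peak had a mean of 0.500 at day 0 and 0.377 at day 6 (limma adjusted p = 0.171). Of its distal OCT4 peaks, 1 went from 0.574 to 0.280 and was called lower (limma adjusted p = 0.0226) and 1 went from 0.462 to 0.357 (limma adjusted p = 0.371). Its YY1 promoter peak had 0.489 and 0.442 (limma adjusted p = 0.269).

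Genes most like these in their 4 OCT4 library means were taken from the 167 X genes with at least 2 OCT4 peaks, by Euclidean distance over the 4 ratios. Klhl34 (0.0251), Usp9x (0.0499) and Tbc1d25 (0.0557) were nearest to Med14, where the median gene lay 0.217 away. Gm14634 (0.0416), Mbtps2 (0.0431) and Usp9x (0.0600) were nearest to Ogt, and peaks of Gm14634 are also counted at Med14. For Taf9b, Il1rapl1 (0.234), Reps2 (0.241) and Stard8 (0.242) came first and the median gene lay 0.399 away. Taf9b has a single peak, whereas only means over at least 2 peaks were candidates. Its distances therefore cannot be set against those of Med14 and Ogt. All distances rest on the OCT4 ratios that chose the genes.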

How the data were processed

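The deposited allelic ratios are fractions, Xi/(Xi + Xa), that the authors computed per peak and library. Per the study's methods, reads were aligned to an N-masked mm10 genome, assigned to alleles and counted in consensus peaks, and peaks with few allelic fragments or skewed day 0 ratios were removed. Tools named in the submitters' processing notes are deepTools 3.5.0, Bowtie2 2.3.5.1, MACS2, Picard and SAMtools. The OCT4 and input lists hold positions pooled over libraries. Total fragments per peak and library depth are not in the tables, so no counting interval was given. The methods describe YY1 peaks called from anti-YY1 libraries, and for allelic counting they also mention peaks from libraries of T7-tagged YY1. Which set the YY1 ratios used here rest on is not settled. OCT4 columns, whose names include a clone absent from the labels, were matched by factor, day and replicate. Columns of the authors' own comparisons were not present in the tables used.

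Samples were grouped by their labels. Each factor was fitted over its whole table with limma 3.58.1 in R 4.3.3 (lmFit, eBayes, day 6 minus day 0, Benjamini-Hochberg over all peaks, threshold 0.05), checked on simulated ratios. Genes, starts and bases came from RefSeq GRCm38.p6 (mm10), read with Python 3.11.15 and pandas 2.3.3. Every peak of the 5 windows was named. The members and gene lists were chosen with earlier results of these data known. Of 6 names in the O-GlcNAc list 5 matched a gene (4 of the 5 are autosomal), and all 5 had an OCT4 promoter region. Alternatives were a logit scale, eBayes with trend and robust, a day 0 filter, a replicate block, windows of 5 and 50 kb, a promoter limit of 1000 bp, the median over peaks, peaks of no other gene, and leaving out each library.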

Additional observations from a re-analysis of the deposited data

How the results depend on the processing

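With 2 libraries a group, counts of calls moved with single libraries. Of all OCT4 peaks limma called 352 lower, and 0 to 288 with 1 library left out (1 without day 0 replicate 1 and 0 without day 0 replicate 2, where 365 and 332 had an unadjusted p under 0.05). Of all YY1 peaks it called 89 lower, and 0 to 51 with 1 library left out (0 without day 0 replicate 2, where 91 had an unadjusted p under 0.05). The count of called YY1 peaks at these genes, 1, was 0 to 0 with a library left out and 2 with the replicate block, which added the peak past Ogt (limma adjusted p = 0.0376). Same-numbered libraries did not deviate together (correlation -0.0217 for OCT4 and 0.0315 for YY1), so the numbers were not taken as pairs, and the block gave 274 lower OCT4 and 97 lower YY1 peaks. The YY1 change at the Ogt promoter ran from -0.132 to 0.0271 with a library left out, and reversed without day 6 replicate 2 (limma adjusted p = 0.665). A window of 50 kb took in 3 OCT4 peaks at Med12 and moved their mean change to -0.218. With a library left out, the mean OCT4 change ran from -0.0739 to -0.00356 at Med14, from -0.0853 to -0.0301 at Ogt, from -0.331 to -0.284 at Med12 and from -0.580 to -0.300 at Taf9b. The mean YY1 change at Ogt ran from -0.116 to -0.0560. The causes were not tested. Unknown fragment numbers limit what can be said of any single peak.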
